A study of Mus musculus with 20 samples.

Results

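Tada2b, Efr3b, Map4k3, Snx3 and Man1a2 are 5 genes of the 55421 counted in mouse aorta that were singled out because their RNA level differed between 2 genotypes at 2 months of age. They were picked by name for that shift, which for none of the 5 passed adjustment over all genes in edgeR. The DESeq2 test called 459 of 23334 genes, all 5 among them. Since the 5 were picked on this same contrast, nothing is read from that call. Their ranks by p-value between the genotypes at 2 months were 8 for Tada2b, 10 for Efr3b, 5 for Map4k3, 3 for Snx3 and 4 for Man1a2, among 20598 genes tested. The 2-month genotype difference is therefore given as a description, with no test. The 10 libraries at 28 months took no part in the choice and carry the test.

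RNA was sequenced from the whole aorta of 20 mice of the C57BL/6 strain, with a library for each animal and 5 animals per group. The 4 groups were knockout mice at 28 months, Pparafl/fl mice at 28 months, knockout mice at 2 months and Pparafl/fl mice at 2 months. The knockout, labelled Pparadelta_SMC, is named for the loss of Ppara in smooth muscle cells (SMC). The Cre line that deletes it is not given in the sources used here. Pparafl/fl mice carry Ppara alleles flanked by loxP sites and serve as controls. No treatment is named for any group.

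PPAR alpha, the product of Ppara, is a nuclear receptor for fatty acids that switches on genes of fatty acid oxidation and ketogenesis. In the vessel wall it is known mainly for restraining inflammatory genes. The 5 genes belong to no shared pathway. Tada2b encodes an adaptor subunit of SAGA, a chromatin complex that acetylates histones at promoters. Efr3b encodes a plasma membrane anchor for the lipid kinase PI4KA, which makes the phosphoinositide PI4P there. Map4k3 encodes a kinase that acts above the JNK pathway and in amino acid signalling to mTORC1. Snx3 encodes a sorting nexin that binds early endosomes and, with retromer, returns cargo such as Wntless to the Golgi. Man1a2 encodes a Golgi mannosidase that trims N-linked glycans before they are elaborated.

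Total counts lay between 50046288 and 79385413 per library, and the lowest count of any of the 5 genes in any library was 272, for Tada2b. Ppara itself overlapped between the genotypes at both ages. It averaged 107 ± 24.9 CPM (counts per 1000000 counts, scaled over the 20 libraries) in the knockout and 135 ± 43.7 CPM in Pparafl/fl at 2 months (SD, n = 5 each). At 28 months it averaged 71.8 ± 19.4 CPM in the knockout and 66.9 ± 24.8 CPM in Pparafl/fl (SD, n = 5 each). The log2 fold change was -0.33 at 2 months (edgeR adjusted p = 0.664) and 0.11 at 28 months (adjusted p = 1.0), so counts over the whole gene gave no check of the genotype labels. The libraries held much RNA of cells other than smooth muscle. Summed over 12 adipocyte markers, the level ran from 7113 to 80860 CPM across the 4 groups, while the 11 smooth muscle markers summed to between 389.7 and 9977 CPM. In whole tissue, fewer cells of a type and less RNA per cell cannot be told apart.

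One library stood apart from its group. Its title number, 2321, falls among those of the Pparafl/fl mice at 2 months (2319 to 2348), while the other 4 knockout mice of that age are numbered 2111 to 2115. What the numbers stand for is not given in the sources used here. This library, knockout animal 5 at 2 months, also differed from animals 1 to 4 in its circadian clock genes. A clock contrast was taken per library by subtracting the mean log2 CPM of Arntl, Npas2 and Clock from that of Dbp, Per3 and Ciart, 3 genes on each side. It was -3.20 in animal 5 and between 1.06 and 1.61 in animals 1 to 4, against -3.23 to -2.06 in the 5 Pparafl/fl mice. The log2 fold changes of the 5 genes at 2 months are therefore given with and without animal 5. Most other values at that age are given only with it.

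The stretches from 250 bases before to 50 bases after the RefSeq start of Tada2b, Snx3 and Efr3b are shown because these genes had the largest fold changes at 2 months among those with a matched promoter, and because Tada2b and Snx3 moved together at 28 months. RefSeq promoters (GRCm38.p6) were matched for 4 of the 5 genes: Tada2b at chr5:36484236-36484535 (minus strand), Efr3b at chr12:4038866-4039165 (minus strand), Map4k3 at chr17:80727976-80728275 (minus strand) and Snx3 at chr10:42501804-42502103 (plus strand). They run 5′ to 3′ on the strand of the gene, and capitals mark the CCAAT box (CCAAT) and the GC box (GGGCGG) on either strand.
Tada2b: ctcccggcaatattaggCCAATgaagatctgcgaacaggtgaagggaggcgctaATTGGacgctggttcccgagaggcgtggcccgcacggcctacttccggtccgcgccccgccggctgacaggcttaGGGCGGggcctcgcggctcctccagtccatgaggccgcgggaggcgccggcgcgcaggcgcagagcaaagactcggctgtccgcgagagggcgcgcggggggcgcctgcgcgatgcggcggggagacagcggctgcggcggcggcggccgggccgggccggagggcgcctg
Efr3b: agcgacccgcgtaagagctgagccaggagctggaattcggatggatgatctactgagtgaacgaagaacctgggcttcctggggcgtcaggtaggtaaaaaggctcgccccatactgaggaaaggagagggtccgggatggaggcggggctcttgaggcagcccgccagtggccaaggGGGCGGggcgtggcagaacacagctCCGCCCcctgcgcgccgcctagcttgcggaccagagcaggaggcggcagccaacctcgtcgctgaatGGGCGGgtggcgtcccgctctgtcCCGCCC
Snx3: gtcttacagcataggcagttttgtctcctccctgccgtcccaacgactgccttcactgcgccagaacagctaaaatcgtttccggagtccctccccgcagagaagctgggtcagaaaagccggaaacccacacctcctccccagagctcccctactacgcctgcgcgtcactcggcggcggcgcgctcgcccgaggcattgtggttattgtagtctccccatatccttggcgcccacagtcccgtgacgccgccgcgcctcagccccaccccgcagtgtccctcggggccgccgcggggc
The Tada2b stretch held 2 CCAAT boxes and 1 GC box, that of Efr3b 4 GC boxes and that of Map4k3 5. The Snx3 stretch held neither. Of 32544 RefSeq promoters of the same length, 37.4% held CCAAT and 35.9% held GGGCGG. Searched on both strands, none of the 4 held the nuclear receptor half-site AGGTCA (in 16.2% of all promoters), its direct repeat 1 base apart, to which PPAR alpha binds with RXR (0.0399%), the E-box CACGTG of the clock activators (7.17%), the D-box TTATGTAA of Dbp (0.931%) or the CRE TGACGTCA (1.8%). These letters were not in these windows, which says nothing of sites elsewhere. All 4 stretches were GC-rich. Their GC share was 74.3% for Tada2b, 66.3% for Efr3b, 82.7% for Map4k3 and 65.3% for Snx3, against a median of 53.0% over all promoters. They held 43, 24, 55 and 28 CpG dinucleotides in the same order, against a median of 7.

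At 2 months, Tada2b, Efr3b and Map4k3 were higher and Snx3 and Man1a2 lower in the knockout, the shifts by which they were chosen. Tada2b had 65.9, 65.6, 81.0, 82.7 and 10.7 CPM in knockout animals 1 to 5, against 11.01, 6.119, 8.676, 9.197 and 8.464 CPM in Pparafl/fl animals 1 to 5. Knockout animal 5 lay within the Pparafl/fl range, and the other 4 lay far above it. Tada2b averaged 61.2 ± 29.4 CPM in the knockout and 8.69 ± 1.76 CPM in Pparafl/fl (SD, n = 5 each), and the log2 fold change was 2.83 (SE 0.47, the standard error). Without animal 5 it averaged 73.8 ± 9.33 CPM in the knockout (SD, n = 4), and the log2 fold change was 3.09.

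Efr3b had 75.6, 64.7, 45.2, 65.4 and 37.6 CPM in knockout animals 1 to 5, against 24.0, 26.6, 21.1, 23.8 and 31.0 CPM in Pparafl/fl. All 5 knockout libraries lay above all 5 Pparafl/fl libraries, with animal 5 the nearest to them. The means were 57.7 ± 15.7 CPM in the knockout and 25.3 ± 3.75 CPM in Pparafl/fl (SD, n = 5 each), with a log2 fold change of 1.20 (SE 0.21), or 1.32 without animal 5. Map4k3 had 118, 113, 129.8, 101.1 and 110.2 CPM in the knockout, against 78.3, 73.4, 67.3, 78.4 and 81.7 CPM in Pparafl/fl. It was the tightest of the 5 in the knockout, where the highest library was 1.28 times the lowest. In Pparafl/fl that ratio was 1.21 for Map4k3 and 1.18 for Snx3. Map4k3 averaged 114 ± 10.6 CPM in the knockout and 75.8 ± 5.63 CPM in Pparafl/fl (SD, n = 5 each), with a log2 fold change of 0.61 (SE 0.10), or 0.61 without animal 5.

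Snx3 had 22.2, 22, 38.8, 27.0 and 56.5 CPM in knockout animals 1 to 5, against 114, 119.5, 134.8, 127.6 and 129.9 CPM in Pparafl/fl. The highest knockout library, animal 5, was still below every Pparafl/fl library. Snx3 averaged 33.3 ± 14.6 CPM in the knockout and 125 ± 8.34 CPM in Pparafl/fl (SD, n = 5 each), with a log2 fold change of -1.91 (SE 0.25), or -2.18 without animal 5. Man1a2 had 56.8, 48.1, 52.5, 37.5 and 36.3 CPM in the knockout, against 139.4, 88.0, 122.6, 99.3 and 132.2 CPM in Pparafl/fl. The groups did not overlap, and animal 5 had the lowest value of the knockout. Man1a2 averaged 46.2 ± 9.07 CPM in the knockout and 116 ± 21.9 CPM in Pparafl/fl (SD, n = 5 each), with a log2 fold change of -1.32 (SE 0.18), or -1.25 without animal 5. Map4k3 in animal 5 lay within the range of the other 4 knockout libraries.

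Of the 5 genes, 4 did not overlap between the genotypes at 2 months, as did 2.6% of all genes tested, and 0.00485% of all genes tested (1 of 20598) were called at an edgeR adjusted p under 0.05. The choice of the genes fixes these counts, so nothing is read from them. The DESeq2 test called 459 of 23334 genes, and edgeR without animal 5 called 102 of 21094. The 5 members were among those of DESeq2, from which nothing is read either. The authors' deposited table gives signed fold changes of 7.094 for Tada2b, 2.296 for Efr3b, 1.515 for Map4k3, -3.759 for Snx3 and -2.505 for Man1a2 at 2 months, and lists all but Map4k3 as changed, with an adjustment over only the genes already past its p and fold limits.

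**Figure D1:**
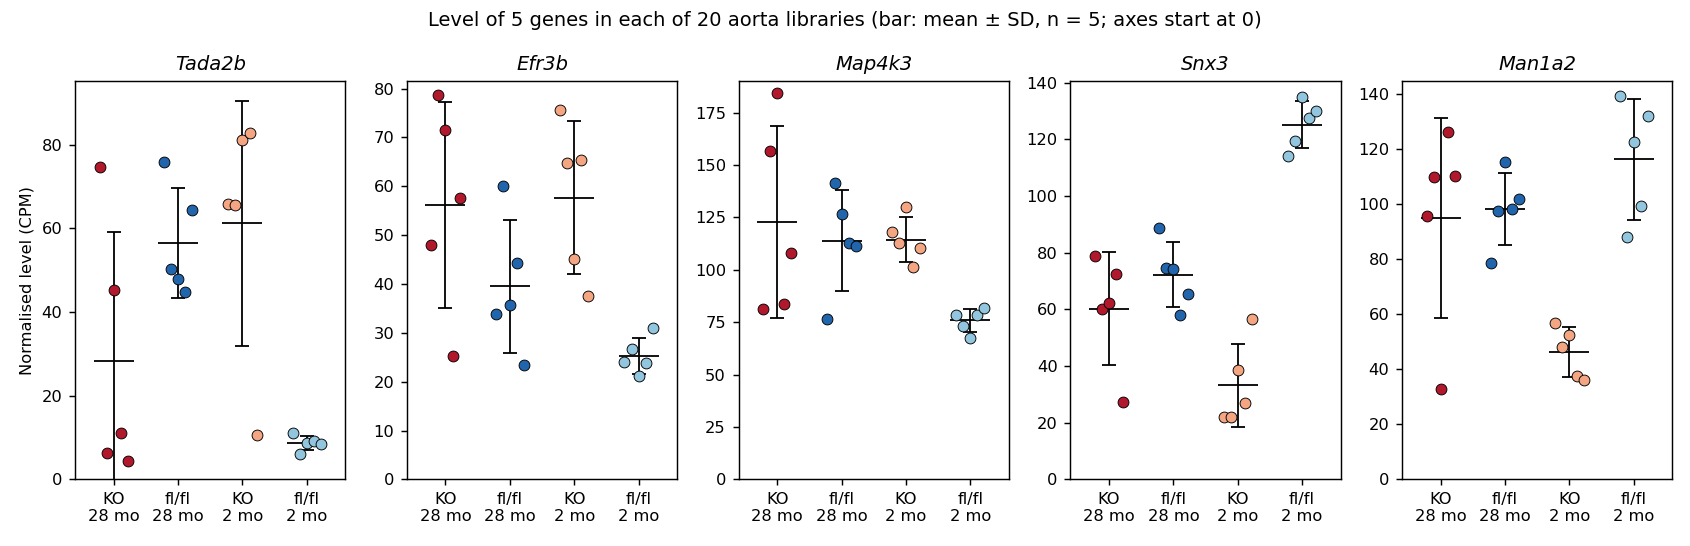
Normalised level (CPM, axes from 0) of each gene in each of 20 libraries, in groups of 5 from left to right: knockout and Pparafl/fl at 28 months, knockout and Pparafl/fl at 2 months; the bar is the mean ± SD and is cut at 0 for Tada2b in the knockout at 28 months. By group mean, Pparafl/fl at 2 months is at one end in all 5 panels and the knockout at 2 months at the other end in all but Map4k3. The 2 genotypes overlap at 28 months in all 5.

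At 28 months, none of the 5 genes differed between the genotypes beyond the spread between animals, and the groups overlapped for all 5. By the edgeR quasi-likelihood test each had an adjusted p of 1.0 over 21468 genes. At that age 0.0% of genes were called by edgeR, with 689 at an unadjusted p under 0.05 and 236 called by DESeq2, and 0.582% did not overlap between the groups.

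Tada2b had 74.7, 6.233, 45.3, 11.1 and 4.29 CPM in knockout animals 1 to 5 at 28 months, against 75.9, 50.2, 47.8, 44.7 and 64.3 CPM in Pparafl/fl. Knockout animals 2, 4 and 5 lay below every Pparafl/fl animal, and animals 1 and 3 lay among them. Tada2b averaged 28.3 ± 30.8 CPM in the knockout and 56.6 ± 13.1 CPM in Pparafl/fl (SD, n = 5 each). The log2 fold change was -0.99 with a 95% interval from -2.53 to 0.56 (edgeR adjusted p = 1.0), on the other side of 0 from the value at 2 months. Without knockout animal 1 it was -1.74.

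Efr3b had 47.9, 78.7, 71.5, 25.3 and 57.7 CPM in the knockout, against 33.9, 60.0, 35.7, 44.4 and 23.5 CPM in Pparafl/fl. Its means were 56.2 ± 21.01 CPM in the knockout and 39.5 ± 13.7 CPM in Pparafl/fl (SD, n = 5 each). The log2 fold change of 0.51 had a 95% interval from -0.23 to 1.25 (edgeR adjusted p = 1.0). Map4k3 had 81.4, 156.5, 184.2, 83.5 and 107.9 CPM in the knockout, against 76.8, 141.6, 126.6, 113 and 111.2 CPM in Pparafl/fl. Both groups spread widely, with a highest library 2.26 times the lowest in the knockout and 1.85 times in Pparafl/fl. Map4k3 averaged 123 ± 45.8 CPM in the knockout and 114 ± 24.1 CPM in Pparafl/fl (SD, n = 5 each), with a log2 fold change of 0.11 with a 95% interval from -0.50 to 0.72 (edgeR adjusted p = 1.0). Its sign turned without knockout animal 3 (-0.09) and without Pparafl/fl animal 1 (-0.01).

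Snx3 had 78.8, 60.2, 62.2, 72.7 and 27.3 CPM in the knockout, against 88.9, 74.8, 74.3, 58.0 and 65.5 CPM in Pparafl/fl. Knockout animal 5 was the single low library. Snx3 averaged 60.2 ± 19.9 CPM in the knockout and 72.3 ± 11.6 CPM in Pparafl/fl (SD, n = 5 each), with a log2 fold change of -0.26 with a 95% interval from -0.83 to 0.31 (edgeR adjusted p = 1.0). Without knockout animal 5 it was -0.06. Man1a2 had 95.6, 109.7, 32.9, 126.1 and 110.2 CPM in the knockout, against 78.7, 97.7, 115.2, 98.2 and 101.7 CPM in Pparafl/fl. Knockout animal 3 was about as low as the knockout at 2 months, and the other 4 lay in or near the Pparafl/fl range. Man1a2 averaged 94.9 ± 36.3 CPM in the knockout and 98.3 ± 13.04 CPM in Pparafl/fl (SD, n = 5 each), with a log2 fold change of -0.06 with a 95% interval from -0.72 to 0.60 (edgeR adjusted p = 1.0). Without knockout animal 3 it was 0.17, and without Pparafl/fl animal 3 it was 0.02.

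Skeletal muscle markers tended lower in the knockout at 28 months, but edgeR called none of them. Summed over 10 markers they ran from 471.1 to 4591 CPM in the knockout and from 3027 to 21900 CPM in Pparafl/fl, which overlap. At an unadjusted edgeR p under 0.05, 9 of the 10 were lower, while 3.21% of all genes tested had such a p. Their median log2 fold change was -2.30 at 28 months and 1.12 at 2 months. No marker was at 0 in all 10 libraries. Their part in the values of the 5 genes at 28 months was not tested. With the mean of the adipocyte markers as a covariate, the log2 fold changes were -0.94 for Tada2b, 0.49 for Efr3b, 0.11 for Map4k3, -0.29 for Snx3 and -0.06 for Man1a2. In the authors' deposited table the signed fold changes at 28 months are -2.001 for Tada2b, 1.41 for Efr3b, 1.072 for Map4k3, -1.205 for Snx3 and -1.042 for Man1a2, and none of the 5 is listed as changed.

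**Figure D2:**
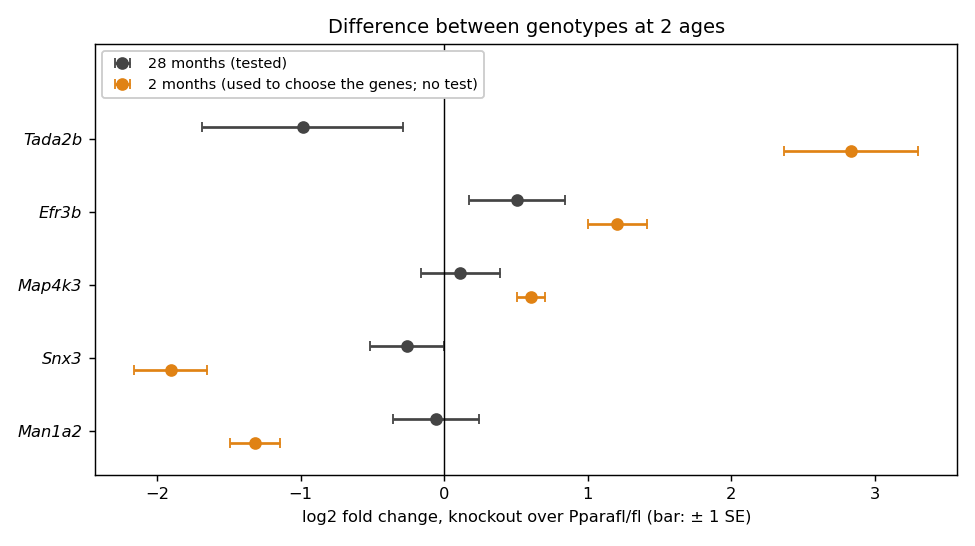
Log2 fold change of each gene, knockout over Pparafl/fl, with ± 1 standard error, at 28 months (grey, upper) and at 2 months (orange, lower; these values chose the genes). The 28-month values run from -0.99 for Tada2b to 0.51 for Efr3b, against -1.91 for Snx3 to 2.83 for Tada2b at 2 months.

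Pparafl/fl at 2 months was the group at one end of the order for all 5 genes. It had the lowest mean of Tada2b, Efr3b and Map4k3 and the highest of Snx3 and Man1a2. The knockout at 2 months was at the other end for all but Map4k3. For Man1a2 it was the group that stood apart, with a mean of 46.2 CPM against 94.9, 98.3 and 116 CPM in the others. The choice on the 2-month libraries fixes part of this order, and the comparisons by age share those libraries, so they are given without a test. The summed RNA of smooth muscle markers also tended lower at 28 months, without overlap between the ages in Pparafl/fl and with overlap in the knockout. The 11 smooth muscle markers summed to 1104 to 9977 CPM in the knockout and 3481 to 8271 CPM in Pparafl/fl at 2 months. At 28 months they summed to 389.7 to 1222 CPM in the knockout and 574.6 to 1204 CPM in Pparafl/fl. The part of tissue make-up in the age differences was not tested. In Pparafl/fl, Tada2b averaged 56.6 CPM at 28 months and 8.69 CPM at 2 months, a log2 fold change of 2.70 (SE 0.21), and the ages did not overlap. Snx3 averaged 72.3 CPM at 28 months and 125 CPM at 2 months in Pparafl/fl, with a log2 fold change of -0.79 (SE 0.14), again with no overlap. These were 2 of the 5 genes, while 9.04% of all genes did not overlap between the ages in Pparafl/fl. Efr3b (0.65, SE 0.24), Map4k3 (0.59, SE 0.16) and Man1a2 (-0.24, SE 0.16) overlapped between the ages.

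In the knockout, none of the 5 genes separated the ages, against 8.64% of all genes. Tada2b averaged 28.3 CPM at 28 months and 61.2 CPM at 2 months, a log2 fold change of -1.11 (SE 0.80), or -1.38 without animal 5 of the younger group and -1.85 without animal 1 of the older. Efr3b (-0.03, SE 0.30) and Map4k3 (0.11, SE 0.23) had nearly the same mean at both ages in the knockout. Snx3 averaged 60.2 CPM at 28 months and 33.3 CPM at 2 months, a log2 fold change of 0.87 (SE 0.34), or 1.14 without animal 5. Man1a2 averaged 94.9 CPM at 28 months and 46.2 CPM at 2 months, a log2 fold change of 1.05 (SE 0.32), and knockout animal 3 at 28 months lay below the whole 2-month range while the other 4 lay above it. The authors' deposited table lists Tada2b as changed with age in Pparafl/fl and Man1a2 in the knockout.

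Ordered over the 4 groups, Tada2b was highest in the knockout at 2 months, then Pparafl/fl at 28 months, the knockout at 28 months and Pparafl/fl at 2 months, and each neighbouring pair in that order overlapped. Snx3 ran from Pparafl/fl at 2 months through Pparafl/fl and the knockout at 28 months to the knockout at 2 months, and the first of these groups stood clear of the other 3. Man1a2 had the same order as Snx3, but its first group overlapped with the next. Per kilobase of exon, Snx3, with an exonic length of 1413 bases, was the most abundant of the 5 in every group, at 42.6, 51.2, 23.6 and 88.6 CPM per kb in the knockout and Pparafl/fl at 28 months and the knockout and Pparafl/fl at 2 months. Efr3b was the least abundant in 3 of the groups, at 5.41 CPM per kb in the knockout and 3.81 in Pparafl/fl at 28 months and at 5.56 in the knockout at 2 months, where Man1a2 was close at 5.80. In Pparafl/fl at 2 months Tada2b was lowest, at 2.29 CPM per kb, with Efr3b at 2.44.

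By position, all 5 are protein-coding genes on separate chromosomes of GRCm38. Tada2b (chr5:36473670-36484285, minus strand, 2 exon blocks) overlaps the 3′ end of Grpel1, a mitochondrial import gene on the opposite strand, by 411 bases. The kit marks strand, but the strand setting of the counting is not given in the sources used here, so reads in that stretch may have been assigned to either gene. Grpel1 averaged 132 ± 37.9 CPM in the knockout and 144 ± 23.9 CPM in Pparafl/fl at 2 months, and 57.7 ± 26.7 CPM in the knockout and 62.1 ± 53.7 CPM in Pparafl/fl at 28 months (SD, n = 5 each). In knockout animals 1 to 5 at 28 months Grpel1 was 15.2, 78.3, 57.9, 55.0 and 82.2 CPM. It was lowest in the animal with the highest Tada2b and highest in the animal with the lowest. Pparafl/fl at 2 months had the same pattern, at 112.7 CPM in animal 1 and 171 CPM in animal 2. In Pparafl/fl at 28 months, animal 1 had the highest of both, 148.6 CPM of Grpel1 and 75.9 CPM of Tada2b. In the knockout at 2 months, animal 5 had the most Grpel1 (182.9 CPM) and the least Tada2b. Animal 4, with the most Tada2b, had 161.1 CPM of Grpel1. The part of shared reads in these values was not tested. Man1a2 (chr3:100562208-100685503, minus strand, 13 exon blocks) holds 4 sense-intronic genes, of which Gm43466 reached 795 counts in a library, against at least 2249 for Man1a2. Efr3b (chr12:3962554-4038915, minus strand, 24 exon blocks) and Map4k3 (chr17:80580512-80728485, minus strand, 35 exon blocks) overlap only antisense or pseudogene annotations with at most 38 and 18 counts. Snx3 (chr10:42502030-42535381, plus strand, 4 exon blocks) overlaps no other gene.

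The closest paralogues of the 5 genes were compared next, and edgeR called none between the genotypes at either age. DESeq2 called Man1a at 2 months, where it called 459 of 23334 genes over all. Man1a, which encodes a Golgi mannosidase of the same class, had 132.1, 160.8, 132, 113.1 and 128.7 CPM in the knockout at 2 months, against 256, 235.2, 251.9, 172.8 and 146.3 CPM in Pparafl/fl. Of the 5 knockout libraries, 1 reached above the lowest Pparafl/fl library. The log2 fold change was -0.66 (SE 0.17, edgeR adjusted p = 0.287), in the direction of Man1a2. At 28 months Man1a averaged 199 ± 80.9 CPM in the knockout and 193 ± 35.4 CPM in Pparafl/fl (SD, n = 5 each; log2 fold change 0.04, edgeR adjusted p = 1.0). At 2 months the log2 fold changes were 0.41 (SE 0.20) for Tada2a, the ADA2 protein of the ATAC complex, 0.34 (SE 0.17) for Snx12, 0.10 (SE 0.10) for Map4k5 and -0.22 (SE 0.13) for Efr3a. At 28 months they lay between -0.25 for Tada2a and -0.03 for Snx12.

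Partners of each gene in its complex or pathway were counted the same way. At 2 months edgeR called none of them. DESeq2 called 3 (Man1a, Map3k7 and Mapk10) over 5 lists of 27 to 31 genes tested in edgeR. Over all genes it called 459 of 23334, and nothing is read from the 3. Over all genes tested the median log2 fold change was 0.01 at either age, and 10.1% (2081 of 20598) had an unadjusted p under 0.05 at 2 months, against which the counts of each list are to be read. SAGA and the related ATAC complex, which share acetyltransferase modules, had 27 members tested at 2 months, with a median log2 fold change of 0.07 and 1 gene higher and 0 lower at an unadjusted p under 0.05. Trrap, the large scaffold of SAGA, averaged 325 CPM in the knockout and 308 CPM in Pparafl/fl, and Sf3b3 averaged 166 CPM in the knockout and 161 CPM in Pparafl/fl. The log2 fold changes of the 27 members ran from -0.72 to 0.54. The 29 genes of the PI4KA complex and phosphoinositide synthesis had a median of 0.03. Pi4ka, the kinase that Efr3b anchors, averaged 287 CPM in the knockout and 246 CPM in Pparafl/fl (log2 fold change 0.24, SE 0.09, adjusted p = 0.449), and Plcb4 averaged 243 CPM in the knockout and 201 CPM in Pparafl/fl.

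Of 31 genes of MAP4K, JNK and mTORC1 signalling tested at 2 months, 3 were higher and 3 lower at an unadjusted p under 0.05, with a median of 0.08. Mtor averaged 388 CPM in the knockout and 342 CPM in Pparafl/fl, and Map4k4 averaged 215 CPM in the knockout and 256 CPM in Pparafl/fl (log2 fold change -0.24, SE 0.09, adjusted p = 0.449). Map4k1, a kinase of blood cells, ran from 2.08 to 25.2 CPM in the knockout and from 25.5 to 39.6 CPM in Pparafl/fl without overlap (log2 fold change -1.23, SE 0.59, adjusted p = 0.512). Map4k1 was the only gene of this list without overlap, a share of 3.23%, against 2.6% of all genes tested. Whether Map4k1 varied with markers of blood cells was not tested. The median shift (log2) was -0.49 over macrophage markers, which ran from -1.02 to 0.88, and -0.84 over T and B cell markers. Over the 5 erythroid markers it was 0.02. The summed macrophage markers overlapped between the genotypes, as did the summed T and B cell markers. The 8 macrophage markers summed to between 530.7 and 976.4 CPM in the knockout and between 966.3 and 1417 CPM in Pparafl/fl, 5 of them lower at an unadjusted p under 0.05. The 9 T and B cell markers, 0 of them under that p, summed to between 9.26 and 449.9 CPM in the knockout and between 366.4 and 785 CPM in Pparafl/fl. No marker of these lists was at 0 in all 10 libraries. Their part in the values of the 5 genes was not tested.

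The 29 retromer and sorting nexin genes had a median of -0.01 at 2 months, with 1 higher and 1 lower at an unadjusted p under 0.05. The lower was Snx5, a nexin that sorts cargo with retromer, at 93.4 to 127.3 CPM in the knockout and 131.2 to 182.3 CPM in Pparafl/fl (log2 fold change -0.42, SE 0.12, adjusted p = 0.329). Vps35, the retromer backbone, averaged 235 CPM in the knockout and 269 CPM in Pparafl/fl (log2 fold change -0.19, SE 0.12). The 31 N-glycan processing genes had the lowest median of the 5 lists, -0.16, with 2 higher and 7 lower at an unadjusted p under 0.05, none of them non-overlapping. The most abundant were the lectin chaperones Calr and Canx. Calr averaged 379 CPM in the knockout and 535 CPM in Pparafl/fl (log2 fold change -0.49, SE 0.17, adjusted p = 0.385), and Canx averaged 399 CPM in the knockout and 448 CPM in Pparafl/fl (log2 fold change -0.16, SE 0.17, adjusted p = 0.758). At 28 months the medians were -0.04 for SAGA and ATAC, -0.04 for phosphoinositide synthesis, -0.08 for MAP4K, JNK and mTORC1, 0.01 for retromer and 0.08 for N-glycan processing. There edgeR and DESeq2 called none, and 3 genes of the 5 lists had an unadjusted p under 0.05, as did 3.21% of all genes tested.

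**Figure D3:**
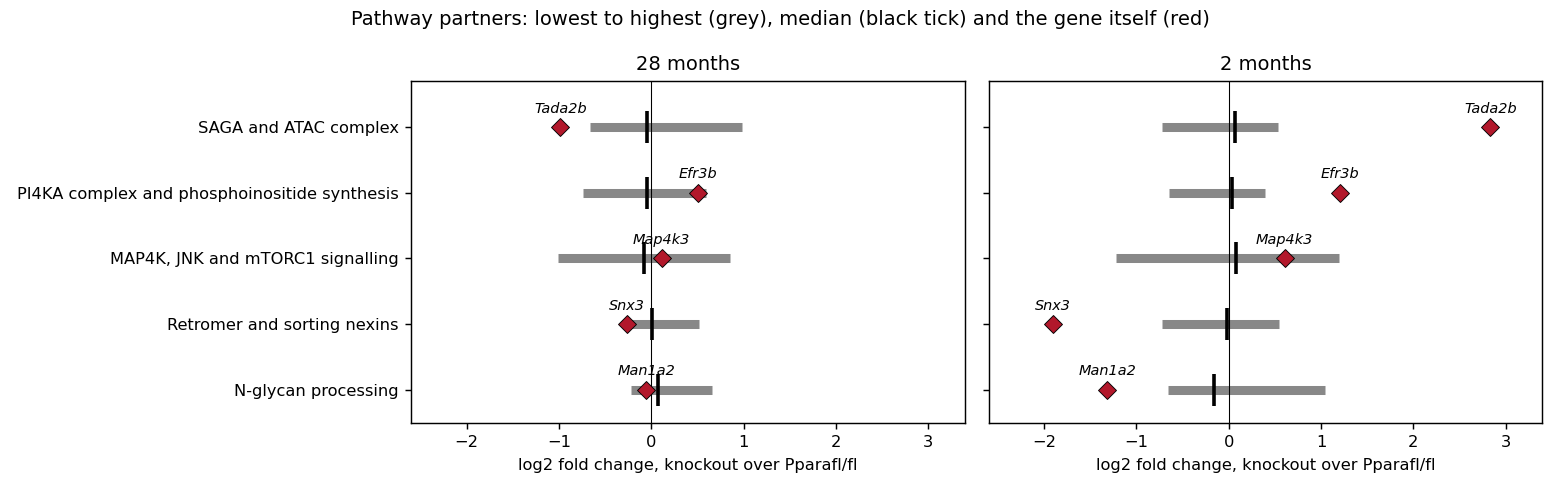
Log2 fold change, knockout over Pparafl/fl, at 28 months (left) and 2 months (right), of each of the 5 genes (red diamonds) over the range of its pathway partners (grey bar, lowest to highest; black tick, median). At 2 months Tada2b, Efr3b, Snx3 and Man1a2 lie outside the range of their partners and Map4k3 inside it; those 2-month values chose the genes.

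The clock contrast differed between the genotypes at 2 months in all but knockout animal 5, as described above. Dbp, a clock output gene that has its peak at dusk, is part of the contrast and so moves with it by construction. Dbp averaged 47.9 ± 24.2 CPM in the knockout and 6.23 ± 2.10 CPM in Pparafl/fl at 2 months (SD, n = 5 each). Knockout animal 5 had 7.16 CPM, within the Pparafl/fl range of 4.26 to 9.18 CPM. Tada2b, Efr3b and Snx3 of animal 5 lay toward Pparafl/fl, as its clock genes did. With the clock contrast as a covariate at 2 months, the log2 fold change was 0.59 for Tada2b (2.83 without it), 0.63 for Efr3b (1.20), -1.27 for Snx3 (-1.91), 0.56 for Map4k3 (0.61) and -1.58 for Man1a2 (-1.32). Genotype and clock contrast were nearly the same split of these 10 libraries, set apart by animal 5 alone. The hour at which the animals were killed is not given in the sources used here.

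At 28 months both genotypes held 1 library with a low clock contrast, animal 1 of each, at -2.32 in the knockout and -2.40 in Pparafl/fl. The other 8 lay between -0.35 and 2.17. Over the 10 libraries, 5 relations were computed, with 100000 permutations each and adjustment over the 5. These relations were added after their values were seen, and the permutations pooled both genotypes. The adjustment does not cover that choice, so the p-values are a description. Map4k3 rose with the clock contrast (Pearson r = 0.83, permutation p = 0.00339, adjusted p = 0.0169; Spearman rho = 0.72, permutation p = 0.0233, adjusted p = 0.0397), and r was 0.67 without the 2 libraries farthest from the median, animal 1 of each genotype. Snx3 fell with it by rank (rho = -0.88, permutation p = 0.00147, adjusted p = 0.00735), but r was -0.45 (permutation p = 0.226, adjusted p = 0.283) and -0.16 without those 2 libraries. The linear relation of Snx3 rests on those 2 libraries. Tada2b also fell by rank (rho = -0.72, permutation p = 0.0238, adjusted p = 0.0397; r = -0.50, permutation p = 0.123, adjusted p = 0.283), with r at -0.24 without the 2 libraries. For Tada2b this direction is opposite to that at 2 months, where the 4 libraries with a high contrast had the high values. By rank the relations were weakest for Efr3b (r = 0.45, permutation p = 0.192, adjusted p = 0.283; rho = 0.49, permutation p = 0.157, adjusted p = 0.196) and Man1a2 (r = -0.22, permutation p = 0.482, adjusted p = 0.482; rho = 0.16, permutation p = 0.656, adjusted p = 0.656). Within a genotype there are 5 libraries at this age, too few for such a relation. The clock contrast as a covariate at 28 months left Tada2b at -0.91, Efr3b at 0.36, Snx3 at -0.18 and Man1a2 at -0.05, and turned Map4k3 to -0.12.

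**Figure D4:**
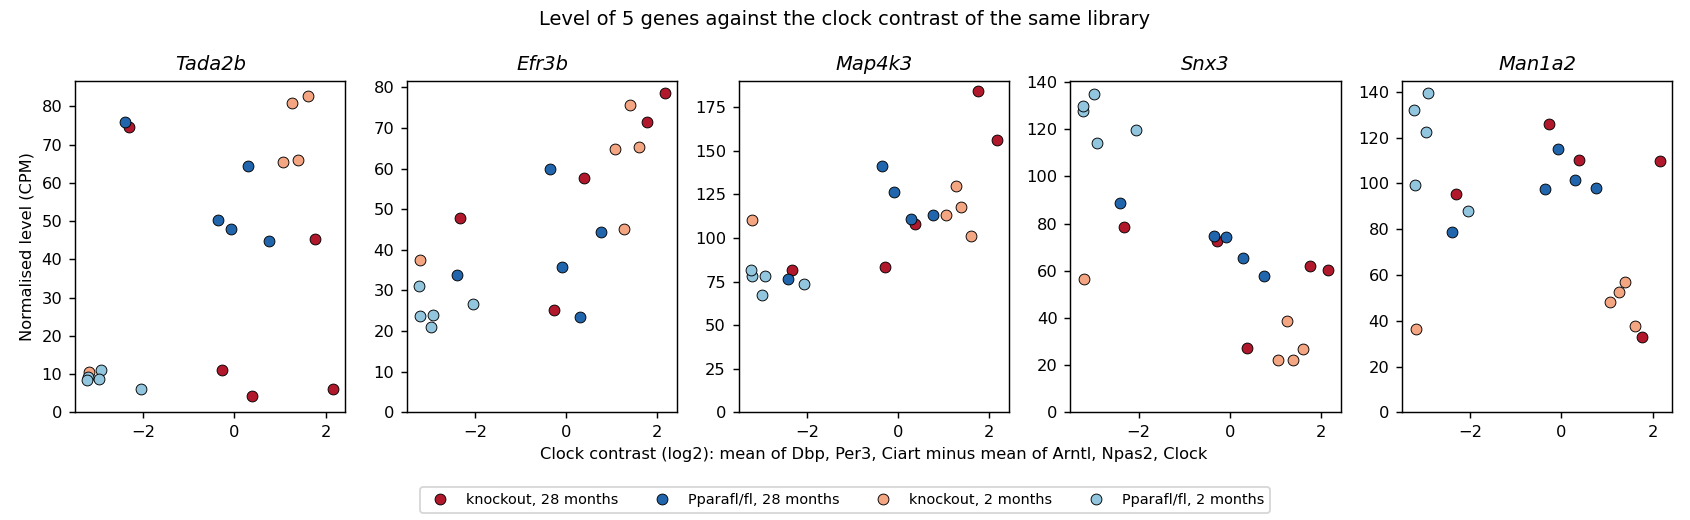
Normalised level (CPM) of each gene against the clock contrast (log2) of the same library, 1 point per library, coloured by group. Tada2b is low in the 6 libraries of 2 months with a contrast below -2 and high in the 2 libraries of 28 months there, while Map4k3 rises to the right among the 28-month libraries.

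Among themselves, the 5 genes did not move as a block at 28 months. As a description over those 10 libraries, which share depth and tissue mix, Tada2b and Snx3 had a Spearman rho of 0.84 although they were shifted in opposite directions at 2 months. Efr3b and Map4k3 had a rho of 0.65, and the other 8 pairs lay between -0.59 and -0.05. Man1a2 had a negative rho with each of the other 4.

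The genes most like each member were sought among 17971 genes with a mean of at least 50 counts, by Spearman correlation of log2 CPM over the 20 libraries, which include those that chose the members. For Tada2b they were Kremen1, a receptor for Dickkopf proteins (rho = 0.85), Gm17193 (0.81) and Nkiras1 (0.76). For Efr3b they were Nf1, a GTPase-activating protein of Ras (0.91), Cfap100 (0.90) and Gm12002 (0.88). For Map4k3 they were Myo15 (0.86), Casz1, a zinc finger transcription factor (0.86), and D930015M05Rik (0.84). For Snx3 they were Api5, an inhibitor of apoptosis (0.84), Gm17816 (0.77) and Mynn (0.75). For Man1a2 they were Ighv1-84, an immunoglobulin heavy chain segment (0.81), Man2b1, the lysosomal mannosidase (0.80), and Gfra2 (0.79). Nf1 ran from 265 to 407.4 CPM over the libraries. As a ratio of highest to lowest, this range was far narrower than the 21.1 to 78.7 CPM of Efr3b. No p-value is attached, since the search was over all genes.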

How the data were processed

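RNA was sequenced from whole aortas of 20 mice. Total RNA was isolated with TRIzol and libraries were made with the KAPA Stranded RNA-Seq kit, per the labels' protocols, which name islets in one place. HISAT, featureCounts 1.5.0-p3, DESeq 1.8.3 and build GRCm38 were used, per the submitters' processing notes. The authors deposited whole-number counts per gene for each library in tables of 2 groups each, and the counts of a library were the same in both tables that hold it. The authors also deposited a signed fold score and p-values of their own test. The p-values were used only for membership of their lists of changed mRNAs (at least 2-fold, p under 0.05 and adjusted p under 0.05). The deposited adjusted p-values match a Benjamini-Hochberg adjustment restricted to genes that meet the p and fold limits, within 1% for all 687 listed mRNAs at 2 months.

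Groups came from the labels, and replicates were numbered by accession, which pairs nothing. Of 55421 identifiers, 55240 (99.7%) matched GENCODE release M21, which gave coordinates and exonic lengths. In edgeR 4.0.16 (R 4.3.3), every comparison had its own fit of the 2 groups, with TMM scaling and filterByExpr. A gene counted as called when its two-sided quasi-likelihood F test gave an adjusted p under 0.05 (Benjamini-Hochberg, over all genes tested). Standard errors are the log2 fold change over the root of F. CPM values use TMM factors over the 20 libraries. Correlations and figures used Python 3.11.15 with pandas 2.3.3, numpy 2.4.6 and scipy 1.17.1. The fits were tested on simulated data. Alternatives were DESeq2 1.42.0 size factors and its Wald test, dropping the filter, a minimum mean of 50 counts, 1 fit of 20 libraries, an adipocyte and a clock covariate, and leaving out each library. The clock covariate and the clock relations at 28 months, and the widths of gaps between libraries, were added after their values were seen. Animals differ far more than counting error at these depths, so total counts do not set the precision.

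The 5 genes and all gene lists were chosen with earlier results of these data known. Named genes are the 5, their closest paralogues, Ppara, the 3 genes most like each by rank, and for each pathway list the called genes or, with none called, the 2 with the highest mean CPM. Grpel1, Dbp, Map4k1, Snx5 and the genes DESeq2 called were named after their values were seen.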

Additional observations from a re-analysis of the deposited data

Results flagged for a closer look

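Tada2b in knockout animal 5 at 2 months, at 10.7 CPM, lay far from the other 4 knockout libraries of that age, at 65.6 to 82.7 CPM. The gap to the nearest of them was 0.762 of the range of the group, above the Dixon limit of 0.71 for 5 values. The 5 genes in 4 groups gave 20 such groups, and chance flags about 1 in 20. The same library had a clock contrast of -3.20, against 1.06 to 1.61 in the other 4, and a title number among those of the Pparafl/fl mice. The part of either in its Tada2b level was not tested.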

How the results depend on the processing

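No paired analysis was possible because replicate numbers only follow accession order. Tada2b, Efr3b and Snx3 moved at 2 months with the clock contrast as a covariate, to 0.594, 0.629 and -1.271 on the log2 scale. Map4k3 and Man1a2 at 2 months, and the comparisons by age of all 5 genes, moved by less than the pooled SD of log2 CPM within groups under every alternative run. With age in the knockout, leaving out single libraries still took Tada2b, -1.105, to between -1.852 (without animal 1 at 28 months) and -0.824, and it turned the sign of Efr3b (-0.179 to 0.166) and, without animal 3 at 28 months, of Map4k3 (-0.075 to 0.232). At 28 months Tada2b, Efr3b and Snx3 kept their sign under all alternatives, with ranges of -1.738 to -0.705, 0.36 to 0.687 and -0.362 to -0.062 when single libraries were left out. Map4k3 turned to -0.118 with the clock covariate and ranged from -0.088 to 0.232 without single libraries, with a negative value without knockout animal 3 and without Pparafl/fl animal 1 (-0.008). Man1a2 ranged from -0.186 to 0.169 without single libraries and was positive without knockout animal 3 and without Pparafl/fl animal 3 (0.017). None of the 5 genes passed an adjusted p under 0.05 at 28 months under any alternative.

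Genes called at 2 months, 1 in edgeR, were 459 with DESeq2, 0 with the clock covariate and 0 to 102 without single libraries, the highest without knockout animal 5. At 28 months, 0 in edgeR, they were 236 with DESeq2 and 0 to 2 without single libraries. DESeq2 called 3 genes of the pathway lists at 2 months, against 0 in edgeR. The cause of these shifts was not tested.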

Other observations

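Sorted over all 20 libraries, Tada2b left an empty range. It was at most 11.1 CPM in 9 libraries and at least 44.7 CPM in the other 11, a gap of 4.03-fold with none between. The 9 low libraries were 3 of 5 knockout and 0 of 5 Pparafl/fl mice at 28 months, and 1 of 5 knockout and 5 of 5 Pparafl/fl mice at 2 months. Among 16240 genes averaging 50 counts or more, with no library at 0, 60 (0.369%) had a gap as wide with at least 5 libraries on each side. The widest gaps of the other members were 1.46-fold for Snx3, 1.39-fold for Man1a2, 1.21-fold for Map4k3 and 1.20-fold for Efr3b. As wide a gap was found in 10.7%, 14.2%, 35.9% and 37.4% of genes in the same order. No test is attached, since the gap was noticed in these libraries.

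Man1a2 and Tada2b were not low in the same knockout animals at 28 months. Man1a2 was lowest in animal 3, at 32.9 CPM, where Tada2b was 45.3 CPM, and Tada2b was lowest in animal 5, at 4.29 CPM, where Man1a2 was 110.2 CPM. Snx3 was lowest in animal 5 as well, at 27.3 CPM. Map4k3 was highest in animal 3, at 184.2 CPM.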
